A study of Mus musculus with 36 samples.

Results

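The proximal forelimb of mouse embryos that lacked the first 3 CTCF binding sites (CBS) of the Hoxd cluster, the allele Del(CBS1-3), was compared with that of embryos that lacked the first 2, the allele Del(CBS1-2). The comparison addressed what the added loss of the third site did to transcription. It rests on 6 libraries, 3 of each allele, chosen by sample title from 36 libraries in 12 groups. All embryos were at stage E12.5 and of strain B6CBAF1, and the alleles were made with CRISPR/Cas9. Sites CBS1 and CBS2 were missing in both groups compared. The groups also differed in sex, with values given beside the results. Each of the 6 libraries came from the proximal forelimbs of 1 embryo, with poly(A) RNA read as single ends of 50 bases. The p-values measure the spread between embryos. For zygosity, founder lines and litters, the sources at hand gave nothing.

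CTCF is a zinc finger protein that binds a directional DNA motif and, together with the ring-shaped cohesin complex, stops the extrusion of chromatin loops, so that its sites mark the borders of regulatory domains. The Hoxd cluster lies between such domains, and its genes, which encode homeodomain transcription factors, are read in the limb from enhancers on either side: genes near the Hoxd13 end serve mainly the future digits, and the central genes mainly the future arm. At E12.5 the proximal forelimb holds the condensing cartilage of the arm bones together with muscle, tendon, nerve, vessel, blood and skin cells.

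The libraries held 13709963, 14004803 and 16379264 counts in Del(CBS1-2) and 13022650, 13862462 and 13011373 in Del(CBS1-3). The groups differed in sex. By the levels of Xist and of genes on the Y chromosome, all 3 Del(CBS1-2) embryos were female, whereas replicates 1 and 2 of Del(CBS1-3) were male and replicate 3 was female. Replicate 2 of Del(CBS1-3) stood apart from its group, with a mean log2 level of cartilage genes of 6.29 against 5.61 and 5.6 in replicates 1 and 3. The score for the dissection border, the mean log2 level of distal minus that of proximal patterning genes, ran from -1.33 to -1.10 in Del(CBS1-2) and from -1.33 to -1.15 in Del(CBS1-3), so it overlapped. No Hox gene was in this score, so it does not cover distal genes such as Hoxd13 and Hoxa13. Levels are given as CPM, counts scaled to library size, and folds as log2 of Del(CBS1-3) over Del(CBS1-2) with the standard error (SE). A gene was called when its edgeR quasi-likelihood p, adjusted by Benjamini-Hochberg over all genes tested, was under 0.05. Of the 1150 genes called, 1139 had groups whose libraries did not overlap, so a lack of overlap adds little to a call.

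The sequences before the starts of Hoxd9 and Hoxd13 are shown first, since these were the HoxD genes in which the libraries of the groups did not overlap. Such 2 of 8 tested HoxD genes are no excess, as 31.3% of all genes tested had no overlap. Each run is from RefSeq on the plus strand of GRCm38.p6, ends before the deposited gene model begins, and has the letters TATAAA, read on either strand, in capitals.
Hoxd9, chr2:74697513-74697726: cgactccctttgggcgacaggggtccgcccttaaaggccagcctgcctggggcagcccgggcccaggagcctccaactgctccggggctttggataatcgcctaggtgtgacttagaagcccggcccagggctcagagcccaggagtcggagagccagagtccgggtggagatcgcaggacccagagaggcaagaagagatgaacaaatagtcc
Hoxd13, chr2:74667975-74668224: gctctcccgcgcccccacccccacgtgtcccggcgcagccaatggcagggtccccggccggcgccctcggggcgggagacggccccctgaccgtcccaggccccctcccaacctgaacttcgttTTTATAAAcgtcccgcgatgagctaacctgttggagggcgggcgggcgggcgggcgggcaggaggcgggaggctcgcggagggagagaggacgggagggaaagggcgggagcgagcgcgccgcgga
The start of Hoxd13 carried TATAAA on both strands, overlapping, and that of Hoxd9 carried none. Of 10 annotated HoxD starts, 2 held TATAAA within 250 bases upstream, against 12.4% of 32851 mouse starts. The core of the CTCF motif, searched on either strand, was in 0 of the 10 HoxD windows and in 2.93% of all starts, which says only that it was not matched in these windows.

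Hoxd9 (74697727 to 74700208 on chromosome 2, mm10), which encodes a homeodomain factor of the arm region, was the 1 gene of the 8 HoxD genes tested that was called. It stood at 42.5, 44.8 and 36.2 CPM in Del(CBS1-2) and at 49.7, 46.1 and 63.2 CPM in Del(CBS1-3). All 3 Del(CBS1-3) libraries lay above all 3 Del(CBS1-2) libraries, replicate 2 by a narrow margin and replicate 3 by a wide one. Its log2 fold change was 0.37 ± 0.09 (SE; n = 3 and 3, edgeR adjusted p = 0.0283). Over all genes 7.27% were called, so 1 of 8 is not far from the background.

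The call of Hoxd9 depended on which libraries were kept. Hoxd9 stayed called without Del(CBS1-3) replicate 2 (fold 0.47, edgeR adjusted p = 0.0085) and without Del(CBS1-2) replicate 2 (fold 0.44, edgeR adjusted p = 0.0492). Its edgeR adjusted p was 0.0686 without Del(CBS1-3) replicate 1, at a fold of 0.41, and 0.155 without replicate 3, at a fold of 0.22. It was 0.0717 without Del(CBS1-2) replicate 1 and 0.112 without replicate 3, at folds of 0.40 and 0.29. With sex as a covariate it was 0.0582, at a fold of 0.41. In a fit of the 6 libraries alone it was 0.0667, at a fold of 0.37, so Hoxd9 was not called there. With the 3 Del(CBS1-2) females against the 1 Del(CBS1-3) female, the fold of Hoxd9 was 0.64 (edgeR adjusted p = 0.022), where the lone library was assumed to vary like the other groups.

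For scale, Hoxd9 averaged 67.2 ± 0.688 CPM (SD, n = 3) in wild type (WT) and 60.2 ± 2.05 in Del(CBS1), the allele without the first site alone. The mean was 41.2 ± 4.44 in Del(CBS1-2), 53.0 ± 8.99 in Del(CBS1-3), 48.8 ± 1.93 in Del(CBS1-4) and 45.9 ± 2.38 in Del(CBS1-5). All 3 Del(CBS1-2) libraries lay below all 3 libraries of WT and of Del(CBS1).

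Hoxd13 (74668310 to 74671599 on chromosome 2), which shapes the digits, had 42.5, 32.8 and 28.2 CPM in Del(CBS1-2) and 23.8, 14.7 and 21.6 CPM in Del(CBS1-3). All 3 Del(CBS1-3) libraries were the lower ones, yet the gene was not called (log2 fold change -0.78 ± 0.45, SE; edgeR adjusted p = 0.289). The spread that the test used was shared by 18 proximal libraries, in which Hoxd13 varied widely: from 33.9 to 90.3 CPM in WT and from 22.2 to 80.8 CPM in Del(CBS1-4). In the fit of the 6 libraries alone, in which Hoxd9 was not called, Hoxd13 passed (edgeR adjusted p = 0.0229). Hoxd12, its neighbour, had 46.2, 45.2 and 44.1 CPM against 47.6, 36.1 and 40.3 CPM, which overlapped (-0.12 ± 0.17).

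Among the central genes, Hoxd11 stood at 47.0, 59.3 and 53.0 CPM in Del(CBS1-2) and at 64.5, 62.8 and 59.0 CPM in Del(CBS1-3). The groups met near their edges, and the gene did not pass (0.23 ± 0.11, edgeR adjusted p = 0.19). Hoxd10 had 92.0, 102 and 86.0 CPM against 102, 93.1 and 113 CPM, again with overlap (0.15 ± 0.08, edgeR adjusted p = 0.257). The ranges of Hoxd8 overlapped as well, with 19.9, 23.5 and 19.99 CPM against 22.6, 23.0 and 24.5 CPM (0.15 ± 0.11).

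The anterior genes were low, and neither was called. Hoxd4 had 7.64, 10.2 and 10.1 CPM in Del(CBS1-2) and 12.2, 5.63 and 11.2 CPM in Del(CBS1-3), where replicate 2 was the lowest of all 6 libraries (0.05 ± 0.20). Hoxd3 had 2.25, 3.27 and 4.46 CPM against 3.13, 2.17 and 1.92 CPM (-0.47 ± 0.29, edgeR adjusted p = 0.323). Since the models of this pair overlap on the chromosome, reads may be shared between Hoxd3 and Hoxd4. Hoxd1 lay under the count filter, with 3, 3 and 4 counts against 3, 6 and 0.

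**Figure D1:**
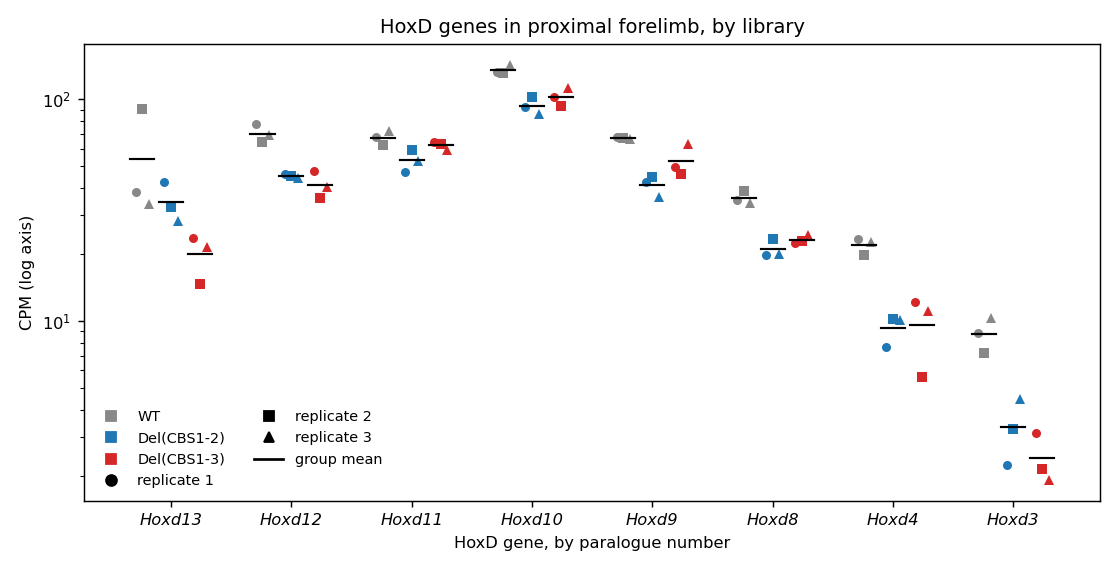
CPM on a log axis of 8 HoxD genes in the proximal forelimb of WT, Del(CBS1-2) and Del(CBS1-3), with 1 point per library, the marker shape giving the replicate number, and the group mean as a bar. The Del(CBS1-3) points lie above the Del(CBS1-2) points for Hoxd9 and below them for Hoxd13, and the groups overlap for the other 6 genes.

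Taken per gene length, as the deposited FPKM, the genes kept a similar order in both alleles. In Del(CBS1-3) the levels ran from Hoxd10 (38 FPKM) and Hoxd11 (30.8) through Hoxd9 (17.2), Hoxd12 (11.4), Hoxd8 (7.04), Hoxd13 (5.65) and Hoxd4 (3.30) to Hoxd3 (0.813). In Del(CBS1-2), Hoxd13 (9.64 FPKM) stood before Hoxd8 (6.75), and Hoxd9 (13.2 ± 1.68, SD, n = 3) was within its spread of Hoxd12 (12.3 ± 0.498).

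Of 12 genes that flank the cluster, 0 were called by edgeR, 1 had an unadjusted p under 0.05 and DESeq2 called 1. Over all genes tested, 4061 of 15813 had such an unadjusted p, and the counts of this kind in every list are to be read against that share. Atp5g3, which encodes a subunit of the mitochondrial ATP synthase, came nearest, at 243 and 271 CPM (0.16 ± 0.05, edgeR adjusted p = 0.054). Evx2, the homeobox gene next to Hoxd13, had 26, 14 and 17 counts in the Del(CBS1-2) libraries and 2, 1 and 1 counts in those of Del(CBS1-3). All 3 Del(CBS1-3) libraries were lower, but Evx2 was not called (edgeR adjusted p = 0.197). Lnpk, beyond Evx2, had 27.8 and 27.4 CPM (-0.01 ± 0.10), and Mtx2, on the Hoxd1 side, 62.9 and 64.6 CPM (0.05 ± 0.06). These genes were picked from the list after their values were seen.

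Within 1 Mb of the cluster, 12 genes were tested and 1 was called. With 7.27% of all genes called, 1 of 12 is near the background and says nothing of the region. The transcript 2600014E21Rik, between 75138843 and 75317820 on chromosome 2 of mm10, on the Hoxd1 side, had 15.4, 14.3 and 9.90 CPM in Del(CBS1-2) and 3.2, 6.14 and 2.69 CPM in Del(CBS1-3). The groups did not overlap (-1.70 ± 0.31, SE; edgeR adjusted p = 0.00824), and it stayed called under all 15 count-based alternatives that were run. The transcript 2600014E21Rik averaged 5.32 ± 1.73 CPM (SD, n = 3) in WT, 7.74 ± 2.32 in Del(CBS1), 13.5 ± 3.92 in Del(CBS1-4) and 4.69 ± 0.618 in Del(CBS1-5), so the levels did not follow the number of missing sites. In distal tissue, where 6.53% of genes were called for the same step (2.94% higher and 3.59% lower), it was not called (-1.48 ± 0.50, edgeR adjusted p = 0.0812).

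Over the whole table, 1150 of 15813 genes were called (7.27%), 617 higher (3.9%) and 533 lower (3.37%) in Del(CBS1-3), and 4061 had an unadjusted p under 0.05. The number of calls in each list below is to be read against these shares. On deposited FPKM, limma called 672, 459 higher and 213 lower, and without a count filter edgeR called 792 higher and 1220 lower. Of the 1150, 329 passed 1.5-fold, and the median log2 fold change of all genes was -0.0015. The number of calls depended on single embryos. It was 126 without Del(CBS1-3) replicate 1 and 172 without its replicate 3, and 190, 190 and 306 without Del(CBS1-2) replicates 1, 2 and 3. Without Del(CBS1-3) replicate 2 it was 1680. With sex as a covariate 143 genes were called, 141 of them among the 1150.

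In the cartilage list all calls were lower in Del(CBS1-3). Of 23 tested, 22 had a negative fold, 6 were called lower and 0 higher, and the median log2 fold change was -0.49. Acan, which encodes the main proteoglycan of cartilage matrix, had 266, 251 and 254 CPM in Del(CBS1-2) and 100.4, 173 and 92.5 CPM in Del(CBS1-3). The Del(CBS1-3) libraries were all lower, with replicate 2 nearest to the other group (-1.07 ± 0.27, SE; edgeR adjusted p = 0.0278). Replicate 2 also stood between the groups in the fibrillar collagen gene Col11a2, at 351, 337 and 339 CPM against 149, 245 and 142 CPM (-0.93 ± 0.23, edgeR adjusted p = 0.0276). Its partner Col11a1 (669 and 406 CPM, -0.71 ± 0.20), Col2a1, the major cartilage collagen (2882 and 2221 CPM, -0.37 ± 0.11), and Col9a2 (585 and 444 CPM, -0.39 ± 0.12) were called as well. Fgfr3, a receptor that restrains cartilage growth, fell from 93.2 ± 1.77 to 66.7 ± 6.45 CPM (SD, n = 3; -0.47 ± 0.10, edgeR adjusted p = 0.0174). The transcription factor genes of the lineage did not pass: Sox9 had 231 and 265 CPM (0.20 ± 0.10, edgeR adjusted p = 0.225), Sox5 89.5 and 85.7 CPM, and Sox6 103 and 97.4 CPM.

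The tendon and connective tissue list had 5 of 18 lower, 0 higher and a median of -0.50. Col1a1, a chain of the main collagen of tendon and bone, had 1483, 1389 and 1409 CPM in Del(CBS1-2) and 768, 1209 and 717 CPM in Del(CBS1-3). Here too replicate 2 stood between the groups without touching the other (-0.66 ± 0.19, edgeR adjusted p = 0.0424). Fbn1, which forms microfibrils, went from 204 ± 11.6 to 142 ± 12.3 CPM (SD, n = 3; -0.52 ± 0.10), and Col5a1 from 997 ± 39.2 to 671 ± 146 CPM (-0.56 ± 0.14). Fmod, which binds collagen fibrils (-0.63 ± 0.18), and Thbs4, a matrix protein of tendon (-1.57 ± 0.46), were the other calls. Scx, the tendon transcription factor, did not pass (74.5 and 79.9 CPM, 0.11 ± 0.08). In bulk tissue, fewer cells of a type and less RNA per cell cannot be told apart.

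These matrix calls rest on few embryos. The cartilage list had 0 lower calls with sex as a covariate, 0 without Del(CBS1-3) replicate 1, 0 without replicate 3 and 17 without replicate 2, and 0, 0 and 1 without Del(CBS1-2) replicates 1, 2 and 3. For tendon and connective tissue the counts were 0 with sex as a covariate, 0, 11 and 0 without Del(CBS1-3) replicates 1, 2 and 3, and 1, 1 and 1 without those of Del(CBS1-2). The mean log2 level of the cartilage list was 6.49 to 6.59 in Del(CBS1-2), 5.6 to 6.29 in Del(CBS1-3) and 5.79 to 6.11 in WT, so Del(CBS1-2) lay above both other groups.

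**Figure D2:**
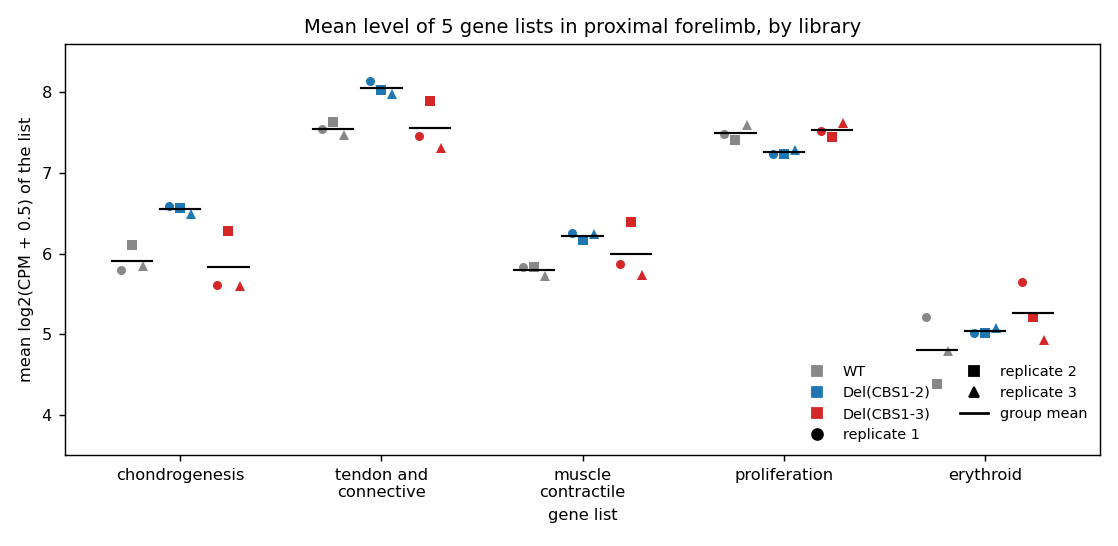
Mean log2(CPM + 0.5) of 5 gene lists in the proximal forelimb of WT, Del(CBS1-2) and Del(CBS1-3), with 1 point per library, the marker shape giving the replicate number, and the group mean as a bar. The cartilage and tendon scores of Del(CBS1-2) lie above those of both other groups, its proliferation scores lie below them, and Del(CBS1-3) replicate 2 is the highest of its group in the first 3 lists.

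Genes of the cell cycle were higher in Del(CBS1-3). Of 18 tested, 12 were called higher and 0 lower, 18 had a positive fold, and the median was 0.28. Bub1, a kinase of the spindle checkpoint, had 87.2, 95.7 and 89.3 CPM in Del(CBS1-2) and 121, 115 and 138 CPM in Del(CBS1-3). The groups did not overlap (0.46 ± 0.09, SE; edgeR adjusted p = 0.0089), and Bub1 stayed called under all 15 count-based alternatives. Rrm2, the subunit of ribonucleotide reductase made in S phase, had 131, 126 and 136 CPM against 199, 159 and 208 CPM (0.54 ± 0.11, edgeR adjusted p = 0.0123). The replication helicase gene Mcm5 (247 and 325 CPM, 0.40 ± 0.09) and the cyclin gene Ccna2 (190.3 and 226 CPM, 0.26 ± 0.06) were among the calls, as were Mcm2, Mcm3, Mcm4 and Mcm7. Mki67 (528 and 601 CPM, edgeR adjusted p = 0.111) and Pcna (85.1 and 86.4 CPM, 0.03 ± 0.12) were not.

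The 12 proliferation calls became 2 with sex as a covariate and 5 with the muscle score as a covariate. They numbered 1, 13 and 1 without Del(CBS1-3) replicates 1, 2 and 3, and 2, 2 and 3 without those of Del(CBS1-2). The list's mean log2 level was 7.24 to 7.29 in Del(CBS1-2), 7.45 to 7.62 in Del(CBS1-3) and 7.41 to 7.60 in WT.

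**Figure D3:**
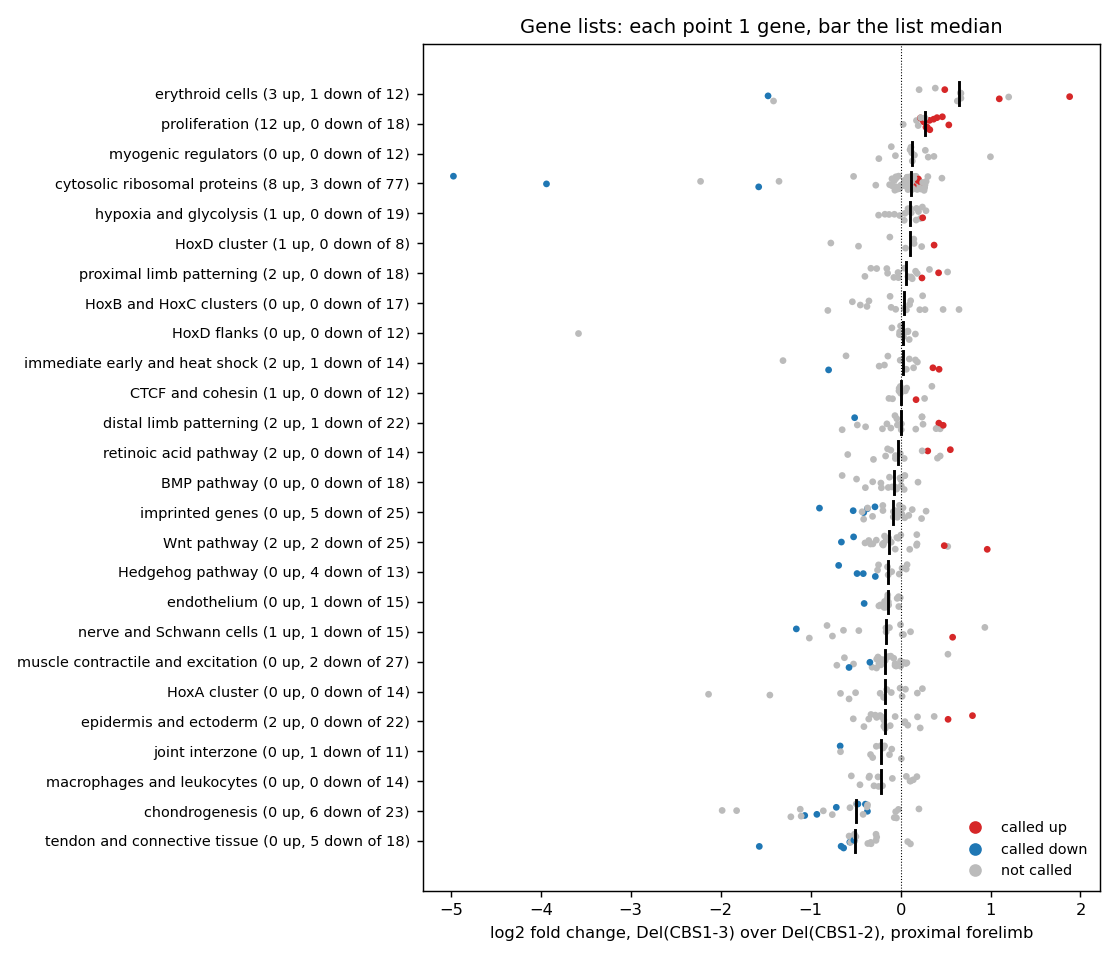
Log2 fold change of each tested gene in 26 lists, Del(CBS1-3) over Del(CBS1-2) in proximal forelimb, with lists ordered by their median (black bar), called genes in red (higher) or blue (lower) and the others in grey. The tendon and cartilage lists have the lowest medians (-0.50 and -0.49), and the erythroid and proliferation lists the highest (0.65 and 0.28).

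In the Hedgehog pathway, which patterns the limb and paces cartilage maturation, 4 of 13 genes were lower and 0 higher, with a median of -0.15. The ligand gene Ihh, made by maturing cartilage cells, had 16.4, 18.9 and 15.7 CPM in Del(CBS1-2) and 8.85, 14.9 and 7.69 CPM in Del(CBS1-3). Replicate 2 was the one that came close to the other group (-0.69 ± 0.19, edgeR adjusted p = 0.038). The coreceptor gene Cdon went from 451 ± 12.7 to 337 ± 28.0 CPM (SD, n = 3; -0.41 ± 0.11). The receptor and target gene Ptch1 (210.3 and 172 CPM, -0.28 ± 0.08) and the ligand-binding Hhip (31.7 and 22.5 CPM, -0.48 ± 0.13) were lower as well. Gli1, a direct target, did not pass (125 and 129.5 CPM, 0.06 ± 0.12), and Shh was too low to test. With sex as a covariate 1 was called, without Del(CBS1-3) replicate 2 there were 5, and 0 were called on leaving out Del(CBS1-3) replicate 1 or 3 or any 1 of the Del(CBS1-2) replicates.

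The Wnt list held calls in both directions, 2 higher and 2 lower of 25, with a median of -0.13. Over all genes, 3.9% were called higher and 3.37% lower. Both higher genes encode secreted Wnt antagonists: Frzb had 46.1, 48.0 and 49.3 CPM against 108, 81.2 and 88.8 CPM (0.96 ± 0.21, SE; edgeR adjusted p = 0.0164). Wif1 had 58.5, 62.7 and 69.5 CPM against 96.6, 71.9 and 97.3 CPM (0.49 ± 0.11, edgeR adjusted p = 0.0206). Neither gene's groups overlapped. The ligand gene Wnt11 went from 111 ± 3.80 to 76.6 ± 7.53 CPM (SD, n = 3; -0.52 ± 0.09, edgeR adjusted p = 0.00741) and stayed called under all 15 count-based alternatives. Dkk3, of the Dickkopf family, was also lower (53.1 and 33.4 CPM, -0.66 ± 0.16).

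Retinoic acid marks the proximal limb. Of 14 genes of its pathway 2 were higher and 0 lower, with a median of -0.03. Stra6, the cell's retinol importer, had 53.7, 52.9 and 63.0 CPM against 85.0, 66.7 and 96.3 CPM (0.55 ± 0.15, edgeR adjusted p = 0.0401), and the retinoic acid binding protein gene Crabp2 203 ± 11.4 and 249 ± 17.1 CPM (SD, n = 3; 0.30 ± 0.08). Among proximal patterning genes 2 of 18 were higher and 0 lower. With 7.27% of all genes called, 2 calls in either list are not far from the background. Shox2, needed for the upper arm, had 302, 301 and 326 CPM against 427, 384 and 427 CPM (0.42 ± 0.11, edgeR adjusted p = 0.0323), and Pbx2, a homeodomain partner of Hox proteins, 250.5 and 294 CPM (0.24 ± 0.06).

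Of 22 distal patterning genes 2 were higher and 1 lower, which is not far from the 7.27% called over all genes. Fgf10, the mesenchymal growth signal of the limb bud, had 15.3, 13.4 and 12.6 CPM against 19, 19.9 and 18.1 CPM (0.47 ± 0.10, edgeR adjusted p = 0.0145), without overlap. The FGF-responsive factor gene Etv4 had 28.4 and 38 CPM (0.43 ± 0.12), and the Notch ligand gene Jag1 was the lower one (43.9 and 30.6 CPM, -0.51 ± 0.14). With sex as a covariate, 0 genes of the retinoic acid, proximal and distal lists were called.

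In the BMP pathway, edgeR called 0 of 18 genes, with 3 at an unadjusted p under 0.05 and 0 by DESeq2. Such an unadjusted p was found in 4061 of all 15813 genes tested, so a few of them in a list say nothing of it. In the HoxA cluster 0 of 14 were called by edgeR, with 5 at an unadjusted p under 0.05 and 0 by DESeq2. Its distal gene Hoxa13, named after its values were seen, stood at 27.4 and 9.95 CPM (-1.45 ± 0.48, edgeR adjusted p = 0.0681). Of 17 HoxB and HoxC genes edgeR called 0, 0 had an unadjusted p under 0.05, and DESeq2 called 0. In the list of CTCF and cohesin genes, Rad21, a cohesin subunit, was the 1 call of 12 (396 and 443 CPM, 0.17 ± 0.04, edgeR adjusted p = 0.0301). In the joint list Enpp2, which makes lysophosphatidic acid, was the 1 call of 11, at 89.1, 99.3 and 90.6 CPM against 60.2, 62.9 and 51.0 CPM (-0.67 ± 0.12, edgeR adjusted p = 0.00866). With 7.27% of all genes called, 1 call in either list is near the background and says nothing of the list.

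Of 27 contractile and excitation genes of muscle 22 were negative, with 2 called lower and a median of -0.17. With 7.27% of all genes called, 2 of 27 is near the background and says nothing of the list. Ryr1, the calcium channel of the muscle reticulum, went from 129 ± 8.81 to 101 ± 5.70 CPM (SD, n = 3; -0.34 ± 0.07), and Tnnt3, a troponin of fast fibres, from 42.5 to 28.4 CPM (-0.57 ± 0.16). The summed level of the list ran from 3981 to 4333 CPM in Del(CBS1-2) and from 2917 to 4619 CPM in Del(CBS1-3), which overlapped. Of 12 myogenic regulators edgeR called 0, 2 had an unadjusted p under 0.05, DESeq2 called 1, and the median was 0.13.

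Of 12 erythroid genes 3 were higher and 1 lower, with a median of 0.65. Their summed levels of 1991 to 2025 CPM in Del(CBS1-2) and 2588 to 3208 CPM in Del(CBS1-3) did not overlap, but most of each sum was the globin gene Hbb-y, which was not called (1372 and 1784 CPM, 0.39 ± 0.13). The mean log2 level of the list, in which each gene weighs the same, did overlap, at 5.01, 5.02 and 5.08 in Del(CBS1-2) and 5.64, 5.21 and 4.93 in Del(CBS1-3), where replicate 3 was below all 3 Del(CBS1-2) libraries. The embryonic globin gene Hbb-bh1 had 48.5, 50.2 and 71.3 CPM against 208, 114 and 302 CPM (1.88 ± 0.43, SE; edgeR adjusted p = 0.0206), and Hba-x, an embryonic alpha-like globin gene, 276 and 588 CPM (1.10 ± 0.28). The adult-type globin gene Hbb-bt went the other way, with 47.2, 39.9 and 35.5 CPM against 15.5, 13.2 and 15.2 CPM (-1.47 ± 0.28, edgeR adjusted p = 0.00931). Its close copy Hbb-bs was not called (36.3 and 57.3 CPM, 0.67 ± 0.46), and reads may be shared between the pair.

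Markers of the other cell types gave few calls, to be read against the 7.27% of all genes that were called. Endothelium had 15 of 15 negative folds, 1 call, Tek, the angiopoietin receptor (38 and 28.5 CPM, -0.41 ± 0.12), and summed levels of 699 to 759 and 598 to 727 CPM. In 22 epidermal genes, Cldn6, a tight junction gene (9.82 and 14.1 CPM, 0.53 ± 0.11), and Krt18, a keratin of simple epithelia (8.22 and 14.3 CPM, 0.80 ± 0.18), were higher and 0 lower. Yet 14 of these 22 epidermal genes had a negative fold and 8 a positive one, with a median of -0.18. The summed epidermal levels of 798 to 892 and 688 to 875 CPM overlapped. Of 14 macrophage and leukocyte genes edgeR called 0, 4 had an unadjusted p under 0.05, and DESeq2 called 1. Among 15 nerve and Schwann cell genes, Nefm, a neurofilament gene, had 13.2, 9.73 and 12 CPM against 5.11, 6.50 and 3.92 CPM (-1.16 ± 0.18, edgeR adjusted p = 0.00284), and Tubb3, a neuronal tubulin gene, 6.05 and 9.01 CPM (0.58 ± 0.17).

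Imprinted genes, read from 1 parental copy, gave 5 lower calls of 25 and 0 higher, with a median of -0.08. Meg3, a maternally expressed long RNA, had 1399, 1281 and 1284 CPM against 930.4, 972 and 834 CPM (-0.53 ± 0.12, SE; edgeR adjusted p = 0.0227). Igf2r, which clears the growth factor IGF2, went from 679.6 ± 28.4 to 555 ± 47.7 CPM (SD, n = 3; -0.29 ± 0.07), and Airn, the RNA read across it, from 46.8 to 35.0 CPM (-0.41 ± 0.11). The models of Igf2r and Airn overlap on the chromosome and the strand setting of the counting is not given, so reads may be shared between them. Phlda2 (5.99 and 3.18 CPM) and Kcnq1ot1 (48.0 and 37.0 CPM) were lower too, whereas Igf2 (1002 and 957 CPM) and H19 (11841 and 12001 CPM) did not pass. The lower calls of this list numbered 0 with sex as a covariate, 6 without Del(CBS1-3) replicate 2, and 0 on leaving out Del(CBS1-3) replicate 1 or 3 or any 1 of the Del(CBS1-2) replicates.

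Beyond the lists, the largest changes were read among 531 higher and 416 lower genes whose higher group averaged 50 counts or more and whose groups did not overlap. Hemgn, a nuclear protein gene of blood precursors, led the higher ones at 0.655, 0.426 and 0.990 CPM against 4.2, 1.95 and 6.16 CPM (2.54 ± 0.62, SE; edgeR adjusted p = 0.0261). Hddc3, a hydrolase gene, had 11.7, 12.4 and 13.2 CPM against 40.2, 44.3 and 30.4 CPM (1.63 ± 0.32, edgeR adjusted p = 0.0115). Hmgb2, a chromatin protein of dividing cells, had 5.89, 22.5 and 23.8 CPM against 48.8, 48.0 and 30.5 CPM (1.29 ± 0.33), with Del(CBS1-2) replicate 1 far below the rest. Dusp4, a phosphatase gene that limits MAP kinase signalling, rose from 13.7 ± 2.25 to 30.4 ± 3.82 CPM (SD, n = 3; 1.159 ± 0.19, edgeR adjusted p = 0.00515). Hsd11b2, which inactivates glucocorticoids, rose from 44.6 to 87.3 CPM (0.97 ± 0.23), and C4a (1.47), Lrrc51, Dusp26, Glo1, Tmem181a, Kirrel2, Smim41, Zfp663 and Igdcc3 (0.97) made up the rest.

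On the lower side stood Eomes, a T-box factor gene, with 20.7, 12.1 and 14.1 CPM against 1.53, 1.3 and 0.385 CPM (-3.84 ± 0.67, SE; edgeR adjusted p = 0.00697). Smpd3, the neutral sphingomyelinase gene that acts in skeletal mineralization, had 11.4, 9.59 and 10.8 CPM against 1.14, 3.54 and 0.846 CPM (-2.50 ± 0.46, edgeR adjusted p = 0.00824). Panx3, a channel gene of maturing cartilage and bone cells, had 7.78, 5.54 and 5.45 CPM against 0.458, 2.82 and 0.231 CPM (-2.38 ± 0.71), and Tnn, the gene of the matrix protein tenascin-W, 7.19 and 1.81 CPM (-1.97 ± 0.40). In Smpd3 and Panx3, Del(CBS1-3) replicate 2 was again the library nearest to Del(CBS1-2). Ntrk3, a neurotrophin receptor gene (-2.05), Sorcs3 (-1.53) and Pcdh15, a protocadherin gene (-1.50), were lower too. Vdr, the vitamin D receptor gene, went from 3.59 to 1.27 CPM (-1.48 ± 0.41), and Nlrp5-ps (-1.86), Kcnt1, Hdhd3 and Luzp2 (-1.44) were also in the set. Tmem181c-ps had 4.95, 3.98 and 2.60 CPM in Del(CBS1-2) and 0 counts in all 3 Del(CBS1-3) libraries.

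Processed copies of genes, inserted in the genome as intronless sequence, gave wide gaps. The 8 copies in the list were picked because earlier results on these libraries had named them, so their count supports nothing. Rps18-ps6, a copy of the ribosomal protein gene Rps18 on chromosome 13 (97760072 to 97760632, mm10), had 0.0727, 0.142 and 0.0619 CPM in Del(CBS1-2) and 156, 156 and 166 CPM in Del(CBS1-3). Rps18 itself, on chromosome 17 (33951999 to 33955677), had 70.3, 67.9 and 69.1 CPM against 4.73, 4.62 and 4.08 CPM (-3.94 ± 0.79, SE; edgeR adjusted p = 0.012). Within each group the libraries of both genes were alike, and the groups lay far apart. Part of the coding sequence of Rps18, from position 282 to 431, is shown with the copy, since reads of 50 bases must be told apart by few differences, which are in capitals. Both are from GENCODE M21 transcripts on GRCm38.
Rps18, coding: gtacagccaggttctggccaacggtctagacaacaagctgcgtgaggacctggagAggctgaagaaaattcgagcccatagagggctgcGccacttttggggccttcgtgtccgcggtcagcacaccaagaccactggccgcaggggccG
Rps18-ps6: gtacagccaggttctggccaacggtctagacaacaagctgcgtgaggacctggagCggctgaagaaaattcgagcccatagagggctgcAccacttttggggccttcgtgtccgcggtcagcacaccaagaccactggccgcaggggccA
The copy and Rps18 differed at 4 of 456 coding bases, and 290 of the 512 stretches of 50 bases in the copy were also in Rps18 transcripts. Hmga1b and Hmga1 differed at 0 of 321. Counts of such pairs are uncertain, since a read within a shared stretch could be given to either.

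The other parent genes moved in different ways. Glo1, an enzyme gene that detoxifies methylglyoxal, rose from 57.7, 54.6 and 57.5 CPM to 124, 128 and 129 CPM (1.17 ± 0.14, edgeR adjusted p = 0.000212). Hmga1b, a copy of a chromatin protein gene, stood at 0.224 and 32.2 CPM while Hmga1 stood at 42.0 and 18.6 CPM (-1.17 ± 0.49, edgeR adjusted p = 0.139). Rnps1-ps stood at 0.233 and 21.2 CPM while Rnps1, a splicing factor gene, fell from 70.1 to 41.9 CPM (-0.74 ± 0.20, edgeR adjusted p = 0.0395). Pcna-ps2 stood at 0.227 and 20.4 CPM while Pcna stood at 85.1 and 86.4 CPM. Of the 8 parent genes, 5 lay on chromosome 17 between 24163866 and 33955677. Of 77 ribosomal protein genes 3 were called lower and 8 higher, against 3.37% lower and 3.9% higher over all genes. Besides Rps18 the lower ones were Rpl26, at 46.6, 48.7 and 50.0 CPM against 1.37, 1.23 and 2.00 CPM (-4.97 ± 1.07, edgeR adjusted p = 0.0169), and Rpl3 (42.4 and 14.2 CPM, -1.58 ± 0.44), whose libraries overlapped.

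Over all 6 alleles, these genes fell into steps that did not follow the number of missing sites. In proximal WT, Rps18-ps6 had 144, 64.0 and 68.7 CPM, and Rps18 had 4.97, 36.2 and 34.5 CPM in the same libraries. The 3 Del(CBS1) libraries had 72.9, 79.2 and 71.8 CPM of Rps18-ps6 and 39.5, 36.5 and 35.9 CPM of Rps18. Replicate 2 of Del(CBS1-4) had 135 CPM of Rps18-ps6 and 4.44 CPM of Rps18, while its replicates 1 and 3 had 64.2 and 67.3 CPM of Rps18-ps6. Rpl26 had 1.4, 82.7 and 51.6 CPM in the 3 WT libraries. Del(CBS1-2) held the 3 lowest and Del(CBS1-3) the 3 highest libraries of Rps18-ps6, whereas the libraries of WT, Del(CBS1-4) and Del(CBS1-5) were mixed. Genotypes of the embryos at these genes were not analysed here, so a genotype that differs between the embryos cannot be told apart from an effect of the allele in the values of Rps18, Rpl26, Glo1 and the other pairs.

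**Figure D4:**
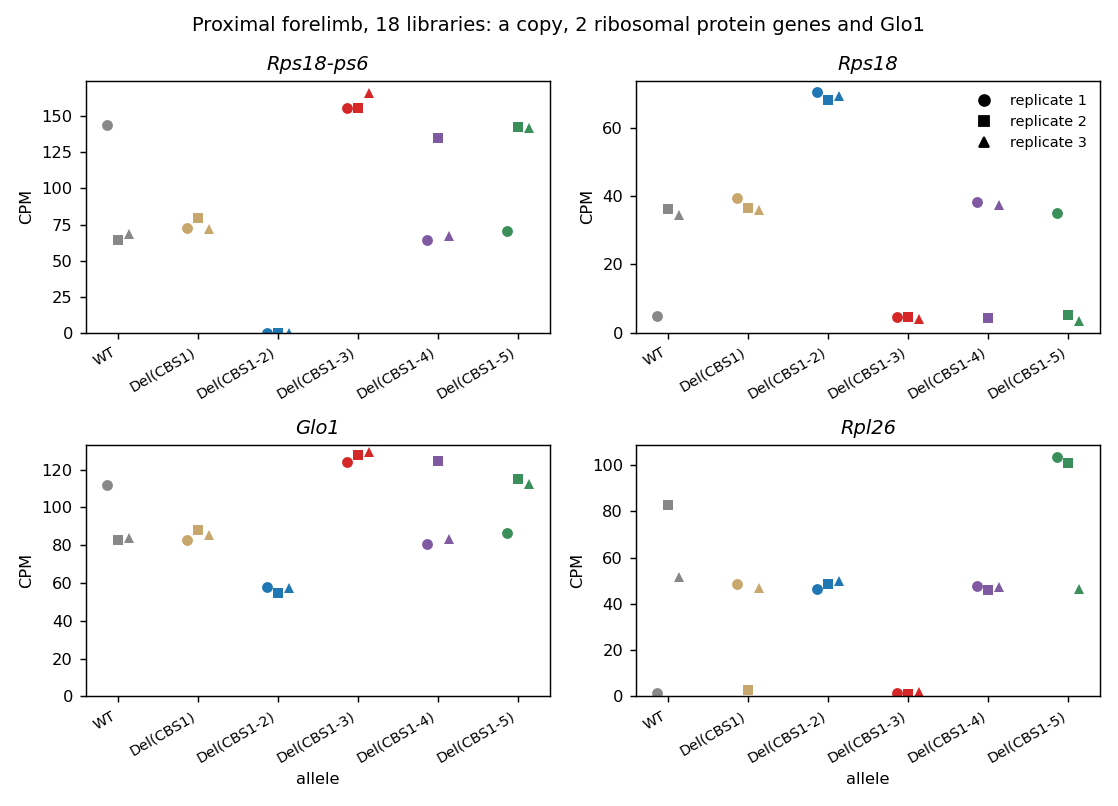
CPM of Rps18-ps6, Rps18, Glo1 and Rpl26 in 18 proximal libraries, 3 per allele, with 1 point per library and the marker shape giving the replicate number. Del(CBS1-2) has the 3 lowest libraries for Rps18-ps6 and Glo1 and the 3 highest for Rps18, and single libraries of WT, Del(CBS1-4) and Del(CBS1-5) come near the Del(CBS1-3) level of Rps18.

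By chromosome, the share of tested genes that were called ran from 4.09% on chromosome 14 to 12.1% on chromosome 17, with 95 of 788. On chromosome 2, which carries the Hoxd cluster, 81 of 1273 were called (6.36%). Of windows of 10 Mb with at least 20 tested genes, the highest share was 8 of 26 (30.8%), from 60 to 70 Mb on chromosome 4. Chosen after their values were seen, Nnt, a mitochondrial transhydrogenase gene, had 79.7, 75.3 and 76.6 CPM against 133, 134 and 126 CPM (0.77 ± 0.10, edgeR adjusted p = 0.000373), and Tmco1, a calcium channel gene of the endoplasmic reticulum, 65.9 ± 3.35 and 96.2 ± 2.96 CPM (SD, n = 3; 0.55 ± 0.05, edgeR adjusted p = 1.20e-05).

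The same step from Del(CBS1-2) to Del(CBS1-3) was also measured in distal forelimb of the same embryos. Whether the fold of this step differed between the tissues was tested as an interaction over all 36 libraries, in a fit that did not pair the tissues of an embryo. Of 16292 genes, 66 were called for such a difference (0.405%), 33 in each direction, with 1994 at an unadjusted p under 0.05. Among those 66 genes, 22 were called in proximal forelimb itself and 49 in distal forelimb. The fold had opposite signs in 60 of the 64 genes with a fold in both tissues. Many of these folds were not called in 1 of the tissues, and some proximal ones were near 0, such as that of Osr1 (0.01). With DESeq2's size factors in edgeR the split was 25 higher and 36 lower. The count was 24 without Del(CBS1-3) replicate 1, 5 without its replicate 3, and 10, 10 and 37 without Del(CBS1-2) replicates 1, 2 and 3. With the embryo as a block, which pairs the tissues, it was 162, and the split was uneven, with 108 higher and 54 lower. Of the 8 HoxD genes edgeR called 0 for a difference, 0 had an unadjusted p under 0.05, and DESeq2 called 0. Hoxd9 had a distal fold of 0.20 ± 0.22, Hoxd13 one of 0.04 ± 0.08, and the interaction of Hoxd13, proximal minus distal, was -0.81 ± 0.46 (edgeR adjusted p = 0.503).

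Eomes had the lowest adjusted p for a difference between the tissues. It went from 15.6 to 1.07 CPM in proximal tissue and from 8.02 to 32.0 CPM in distal tissue, an interaction of -5.82 ± 0.82 (SE; edgeR adjusted p = 0.00119). Nefm went from 11.7 to 5.18 CPM in proximal and from 4.04 to 13.8 CPM in distal tissue (-2.93 ± 0.44, edgeR adjusted p = 0.00148). Has2, which makes hyaluronan for the matrix of young mesenchyme and was named after its values were seen, went from 43.9 to 31.6 CPM and from 68.2 to 97.1 CPM (-0.97 ± 0.16, edgeR adjusted p = 0.00585). In the other direction, Wif1 (0.99 ± 0.20), Fgf10 (0.56 ± 0.13) and Crabp2 (0.53 ± 0.10) had the higher fold in proximal tissue.

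**Figure D5:**
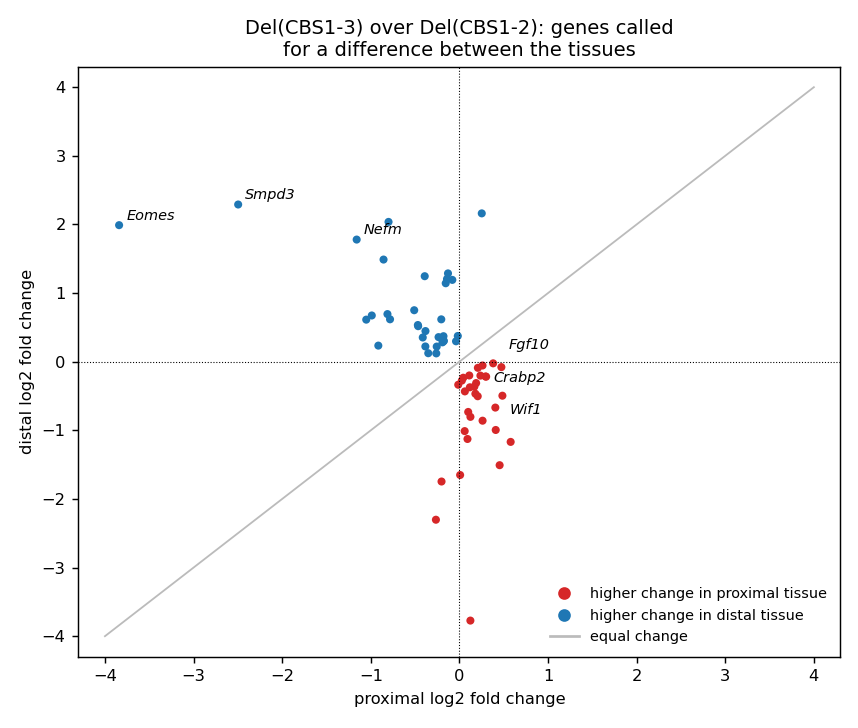
Proximal (x axis) against distal (y axis) log2 fold change of Del(CBS1-3) over Del(CBS1-2) for the 64 of 66 genes called for a difference between the tissues that have a fold in both. Blue points, above the grey line of equal change, include Eomes, Smpd3 and Nefm, and red points, below it, include Fgf10, Crabp2 and Wif1.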

How the data were processed

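RNA of E12.5 mouse forelimbs was sequenced in 36 libraries. Per the submitters' processing notes, cutadapt 1.16, STAR 2.7.0, Cufflinks 2.2.1 and bedtools 2.27.1 were used with mm10; the strand setting of the counting is not given in the sources used here. The authors deposited raw counts for 50833 genes and FPKM for 55052. Counts were tested here with edgeR 4.0.16 (R 4.3.3; TMM, filterByExpr, quasi-likelihood F-test, Benjamini-Hochberg) in 1 fit of the 18 proximal libraries, and the tissue difference in 1 fit of all 36. Alternatives used DESeq2 1.42.0 and limma 3.58.1 on log2(FPKM + 1) or log2(FPKM + 0.1) of the deposited FPKM. The sex covariate came from Xist and Y-linked FPKM. Tested on simulated counts of 15658 genes, the fit found 76.1% of the changes of 1.5-fold and 94% of those of 2-fold, and 12 of its 191 calls were wrong. The counts were drawn independently from the fit's own spread, and only genes well above the floor were changed. Differences of sex and shifts shared by many genes were not simulated, so these rates cannot be carried over to the real calls. Proximal and distal libraries with the same number had the same sex in all 18 pairs, and their deviations correlated at 0.393 to 0.468 in Del(CBS1-2) and 0.485 to 0.682 in Del(CBS1-3), so these numbers were taken to mark embryos.

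Genes were named by a rule: all HoxD genes, called genes within 1 Mb, up to 4 called members per list by p, and up to 14 genes per direction by fold with a mean of at least 50 counts and no overlap, unnamed gene models passed over; 1 gene that the rule names and 1 sequence are not reported here; others are said to be chosen after their values were seen, and further list members are named as context. The members and lists were chosen with earlier results of these data known. Coordinates are those of the deposited tables.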

Additional observations from a re-analysis of the deposited data

Results flagged for a closer look

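The fold of Del(CBS1-3) over Del(CBS1-2) differed between proximal and distal forelimb in 66 genes, by the interaction term of edgeR over 36 libraries. The count was 5 without proximal Del(CBS1-3) replicate 3. The alleles also differed in sex, and genotypes elsewhere in the genome were not analysed, so an effect of the third site cannot be told apart from these. Each value below is the proximal minus the distal log2 fold change with its SE, and the rest of the sentence gives the distal values.

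Eomes had -5.82 ± 0.82 (edgeR adjusted p = 0.00119), with 6.05, 12.4 and 5.63 CPM in the distal Del(CBS1-2) libraries and 30.6, 27.4 and 37.8 CPM in those of Del(CBS1-3). Nefm had -2.93 ± 0.44 (edgeR adjusted p = 0.00148), with distal values of 4.78, 3.65 and 3.69 CPM against 12.7, 13.8 and 14.8 CPM. In both genes the distal groups did not overlap and moved against the proximal direction. Smpd3 had -4.79 ± 0.87 (edgeR adjusted p = 0.0121), at distal means of 0.212 and 1.04 CPM, and its adjusted p was 0.0509 without proximal Del(CBS1-3) replicate 3. Crabp2 had 0.53 ± 0.10 (edgeR adjusted p = 0.0178; distal means 264 and 225 CPM), and its adjusted p was 0.0656 without Del(CBS1-3) replicate 3 and 0.0625 without Del(CBS1-2) replicate 2. Wif1 had 0.99 ± 0.20 (edgeR adjusted p = 0.0195; distal means 107 and 75.4 CPM), and its adjusted p ran from 0.0625 to 0.0769 without Del(CBS1-3) replicate 1 or 3 or Del(CBS1-2) replicate 1 or 2. Fgf10 had 0.56 ± 0.13 (edgeR adjusted p = 0.0465; distal means 35.8 and 33.7 CPM), and it was not called without any 1 of the 6 proximal libraries (0.0637 to 0.126).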

How the results depend on the processing

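The 1150 calls were 1143 with DESeq2's size factors, 1487 by DESeq2, 1592 with only the 6 libraries and 1193 with the border score as a covariate. They were 2012 without a count filter, 672, 659 and 177 with limma on log2(FPKM + 1), on log2(FPKM + 0.1) and on log2(FPKM + 1) without a filter, 143 with sex and 493 with the muscle score as a covariate, and 96 in female embryos alone, a setting chosen after seeing the data (77 of them among the 1150). Leaving out 1 library gave 126 to 1680. With the replicate number as a block the count was 668, 657 of them among the 1150; same-numbered proximal libraries of the alleles had correlations of deviations of -0.099, 0.053 and -0.022, so they share only a number, and not every sample correlated best with its own.

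The 1 HoxD call was Hoxd9; with only the 6 libraries it was Hoxd13 instead, and Hoxd9 was not called (edgeR adjusted p = 0.0667). The count became 2 without a count filter and 0 with FPKM without a filter, with sex and with the muscle score as a covariate, and was 0 to 1 on leaving out 1 library. The fold of Hoxd4, 0.05, changed sign to -0.15 with the muscle score, to -0.0057 on log2(FPKM + 0.1), and to -0.16, -0.07 and -0.07 without Del(CBS1-3) replicate 1, Del(CBS1-3) replicate 3 and Del(CBS1-2) replicate 1; over all 6 libraries left out it ran from -0.16 to 0.33. The 66 tissue differences were 147 by DESeq2, 512 without a count filter, 135 with only the 12 libraries of both alleles, 162 with the embryo as a replicate block, and 5 to 90 on leaving out 1 library. The HoxD tissue differences were 0, and 1 without a count filter. Of 86 named genes with a call, 9 stayed called in all 15 count-based alternatives, and 0 changed direction. The cause of these shifts was not tested. With 3 embryos a group and unequal sexes, small changes and changes in genes of few counts are the least certain.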
